A study of Mus musculus with 45 samples.

Results

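The Usp17l genes Usp17la, Usp17lb, Usp17lc, Usp17ld and Usp17le encode deubiquitinating enzymes of the mouse, and their transcripts were followed in embryonic stem cells (mESCs) that had lost EHMT2 or had it inhibited. The members were the rows with these gene symbols, matched by Ensembl ID in the experiment on Dppa4, which gave 5 of 55401 genes. The family was chosen by its folds after 24 h of degrader in these same libraries, so that its values in this comparison describe the choice and test nothing.

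EHMT2 is a histone methyltransferase of H3K9, and the study asked which genes it holds down in pluripotent cells. Bulk RNA-seq comprised 45 libraries in 15 groups of 3, spread over 4 experiments. In the time course, BL6/129 mESCs carrying a degron and an mCherry reporter on Ehmt2 (EHMT2-dTAG-mcherry, clones 17, 20 and K71) received DMSO or the degrader dTAG-13 for 24 h or for 7 d. In the washout experiment the same clones received DMSO for 15 d, dTAG-13 for 15 d, or dTAG-13 for 7 d and then 8 d of washout (Recovery). In the sorted experiment BL6/129 cells that also held a GFP reporter under MERVL promoter elements (EHMT2-dTAG-mcherry-mervl-gfp) received DMSO or dTAG-13 for 72 h, and 200000 cells were collected as GFP-negative mESCs or as GFP-positive 2-cell-like cells (2CLCs). The DMSO groups of these experiments carried the degron as well. In the fourth experiment WTJ1 mESCs and DPPA4KO mESCs, in which Dppa4 was disrupted with CRISPR/Cas9, received DMSO or UNC0638, which inhibits EHMT2 and its partner EHMT1, during 48 h, with 3 independent clones of each line. A difference between KO and WT is therefore a difference between cell lines. The degron cells were grown on feeder fibroblasts.

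The values are normalized counts, the reads of a gene divided by a size factor of the library. The tables of the time course, the washout and the sorted experiment hold the authors' mean of each group, without values for single libraries. From these means neither a spread nor a test could be computed, the authors' own test results for these 3 experiments were not used, and the differences are described by size. Each experiment was scaled on its own, and levels are compared within it. Folds between means were taken after adding 1 to both means, and a member was counted as higher or lower from 2-fold on. The Dppa4 experiment holds each of its 12 libraries, with 8399885 to 12710949 gene reads, and was tested with limma. The Ehmt2 transcript itself was near its control in the degrader groups, with means of 616 in DMSO and 609 in dTAG at 24 h, since dTAG-13 acts on the protein. Dppa4 was at 0 in all 6 KO libraries and between 700.4 and 920.5 normalized counts in the 6 WT libraries.

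Deubiquitinating enzymes of the USP class are cysteine proteases that take ubiquitin off proteins and can so spare them from the proteasome. The Usp17l genes, also called DUB genes, were first described as early genes induced by cytokines in blood cells, and the human enzyme USP17 is known to act on CDC25A, RCE1 and Snail. In the mouse embryo transcripts of this family belong to those that appear when the zygotic genome is switched on at the 2-cell stage. In mESC cultures a few cells enter a similar state, marked by MERVL repeats and the Zscan4 genes, through activators that include Dux, DPPA2 and DPPA4.

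All members lie on chromosome 7 within 1.61 Mb, in 2 groups. On the build used by the files, GRCm38, Usp17ld (103249737 to 103252505, minus strand) and Usp17lc (103415072 to 103419880, plus strand) lie 163 kb apart. Usp17le (104768049 to 104777470, minus strand), Usp17lb (104840257 to 104842603, minus strand) and Usp17la (104857009 to 104862667, plus strand) form the other group, with gaps of 62.8 kb and 14.4 kb. Between the groups lies the pseudogene Usp17le-ps (104652252 to 104653208). All 5 members are annotated as protein coding, with coding sequences of 1404 bases (Usp17lb) to 1635 bases (Usp17lc and Usp17ld).

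Sequence just before the start of the genes was shared between members of both groups. The RefSeq promoters of GRCm38.p6 held 4 of the 5 members, from 250 bases before to 50 after the annotated start, and a block of 139 bases could be aligned between them without a gap. The blocks are printed because the members moved together in every experiment. Capitals mark a TATA-like stretch, which begins 46, 31, 88 and 110 bases before the start of Usp17la, Usp17lb, Usp17lc and Usp17ld. Their positions are chr7:104856846-104856984 on the plus strand, chr7:104842600-104842738 on the minus strand, chr7:103416484-103416622 on the plus strand, where it lies in the first intron of a longer Usp17lc transcript, and chr7:103252601-103252739 on the minus strand.
Usp17la: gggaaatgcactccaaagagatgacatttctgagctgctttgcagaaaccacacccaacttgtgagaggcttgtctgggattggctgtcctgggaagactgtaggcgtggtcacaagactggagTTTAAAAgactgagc
Usp17lb: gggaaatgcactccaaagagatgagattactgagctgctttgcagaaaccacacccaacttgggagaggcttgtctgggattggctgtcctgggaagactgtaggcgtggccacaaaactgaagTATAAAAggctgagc
Usp17lc: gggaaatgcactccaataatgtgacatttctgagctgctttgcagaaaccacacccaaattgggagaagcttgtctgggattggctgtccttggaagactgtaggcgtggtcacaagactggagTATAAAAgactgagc
Usp17ld: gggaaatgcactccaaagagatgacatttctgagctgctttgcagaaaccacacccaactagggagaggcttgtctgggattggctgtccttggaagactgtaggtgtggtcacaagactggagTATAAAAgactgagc
Between pairs the blocks were 90.6% (Usp17lb and Usp17lc) to 96.4% (Usp17la and Usp17ld) identical. TATAAA was found in the windows of Usp17lb, Usp17lc and Usp17ld and not in that of Usp17la, where the stretch reads TTTAAAA, and 13.6% of 32851 promoters of the same length held it on either strand. Of the other motifs listed for the search, TGATT and AATCA parted by 1 base (Dux-like, in 0.0335% of promoters), TGCACAC (Zscan4-like, 4.40%), TGANTCA (7.81%), AGATAA (11.2%) and GGATTA (7.06%), none was in the 4 windows. CCACACCC (3.56% of promoters) and GATTGG (16.1%) were looked up after the blocks had been read, and both were in all 4 windows, inside the block. ATAAAA, looked up in the same way and overlapping TATAAA in 3 of the windows, was in all 4 windows and in 18.5% of promoters.

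The coding sequences fell into close and distant pairs. Usp17lc and Usp17ld were 98.4% identical, and Usp17la was 90.6% and 90.8% identical to these. Usp17lb was at 78.4% to 81.1% to the others. Gaps counted as differences, which lowers the values of Usp17lb, whose coding sequence is the shortest at 1404 bases. These values therefore cannot rank it by distance. A stretch of 100 coding bases of GENCODE transcripts, within 1 exon of each gene, is shown for all 5, because reads of this length decide to which member a count goes. Capitals mark bases unlike the most common base among the 5 members. At a tie the base of the member printed first was taken as the most common, so some capitals mark an equally common base. The stretches lie at chr7:104861455-104861554 (Usp17la, plus strand), chr7:104840357-104840456 (Usp17lb, minus strand), chr7:103418765-103418864 (Usp17lc, plus strand), chr7:103250359-103250458 (Usp17ld, minus strand) and chr7:104768467-104768566 (Usp17le, minus strand).
Usp17la: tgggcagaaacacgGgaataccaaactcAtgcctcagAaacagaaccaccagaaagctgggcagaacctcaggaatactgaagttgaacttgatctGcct
Usp17lb: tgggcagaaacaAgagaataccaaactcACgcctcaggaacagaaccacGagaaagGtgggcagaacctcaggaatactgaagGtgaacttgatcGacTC
Usp17lc: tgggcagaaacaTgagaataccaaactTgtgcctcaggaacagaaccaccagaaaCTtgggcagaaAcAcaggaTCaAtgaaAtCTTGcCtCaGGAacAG
Usp17ld: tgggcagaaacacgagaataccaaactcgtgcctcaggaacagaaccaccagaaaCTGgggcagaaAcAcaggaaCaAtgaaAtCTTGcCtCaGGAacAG
Usp17le: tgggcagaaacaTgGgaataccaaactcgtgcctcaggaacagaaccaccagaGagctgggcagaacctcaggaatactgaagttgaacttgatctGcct
Usp17la and Usp17le differed at 4 of these 100 bases, as did Usp17lc and Usp17ld, and the most distant pairs differed at 25. The stretch was picked so that its least difference between members was as large as possible, with no pair allowed past 25. Both values thus follow from the choice, and other stretches can be harder to tell apart. Of all windows of 100 bases in the transcripts, 32.3% of those of Usp17lc and 39.5% of those of Usp17ld occurred letter for letter in another member, against 3.32% for Usp17la, 5.48% for Usp17le and 10.1% for Usp17lb. The alignment wrote a read to its best position, and chance decided between positions that matched equally well, so values of single members are uncertain, above all for Usp17lc and Usp17ld. Reads moved between members do not change the sum of the 5, which is given beside the single genes. Windows shared letter for letter with an annotated transcript of any gene but the 5 members made up at most 4.74%, in Usp17le. The pseudogene Usp17le-ps was among the genes searched, and sequence outside annotated transcripts was not searched.

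After 24 h without EHMT2 all members were higher. Usp17lb, the member with the largest fold, had a mean of 7.55 normalized counts in DMSO and 339 in dTAG, a fold of 39.7. Usp17la had 9.35 and 256, a fold of 24.9. Usp17lc had 11.8 and 213, a fold of 16.7. Usp17le, the highest member in DMSO, went from 23.9 to 358, a fold of 14.4. Usp17ld, the lowest in both groups, had 6.46 and 98.9, a fold of 13.4. The 5 members ranked 1, 2, 7, 11 and 15 among the 18451 genes with a mean of at least 10 in either group, and they were chosen for this. Of those genes 3.58% were at least 2-fold higher, and their median log2 fold was 0.00. The family sum was 59.1 in DMSO and 1265 in dTAG.

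At 7 d the means were larger again in the cells without EHMT2 while DMSO stayed low. Usp17lb had a mean of 15.7 in DMSO and 909 in dTAG, a fold of 54.5. Usp17la had 10.9 and 581, a fold of 48.8. Usp17le had 24.6 and 743, a fold of 29.1. The near-identical pair came next, Usp17ld with 7.39 and 226, a fold of 27.1, and Usp17lc with 19.9 and 522, a fold of 24.98. All 5 were over 2-fold higher, beside 5.38% of 18602 genes, and ranked 2, 3, 18, 28 and 37. The family sum was 78.5 in DMSO and 2981 in dTAG. Between the DMSO groups, 0 of 5 members were past 2-fold at 7 d against 24 h, with folds from 1.03 (Usp17le) to 1.95 (Usp17lb), beside 0.862% of 18204 genes at least 2-fold higher and 1.49% lower. Usp17ld was under a mean of 10 in both DMSO groups. The log2 fold of dTAG over DMSO was larger at 7 d than at 24 h for each member, by 0.46 (Usp17lb) to 1.01 (Usp17ld), and 2 of 5 differences, those of Usp17ld and Usp17le, were past 1, beside 4.77% of 19002 genes. With the means rescaled by TMM, or, in an alternative added after the data were seen, to the same sum, 0 of 5 were past 1.

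**Figure D1:**
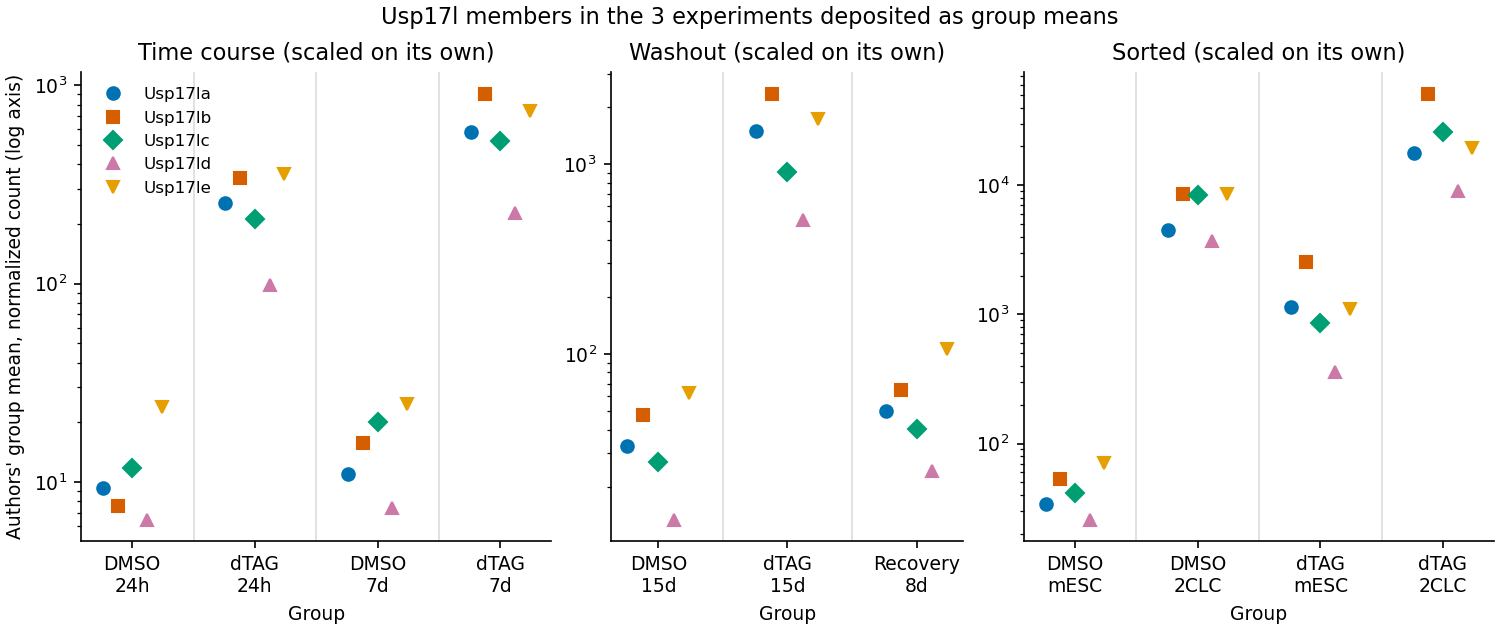
Authors' group means of the 5 Usp17l members in normalized counts, on a log axis, in the time course, the washout and the sorted experiment, 1 point for each member and group of 3 libraries, each experiment on its own scale. All members are higher in dTAG than in the matching DMSO group, the Recovery means lie near those of DMSO, and the 2CLC means lie above the mESC means.

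Markers of the 2-cell-like state moved with the family. MERVL-int, the internal part of the MERVL repeat, had means of 5296 and 28792 at 24 h and of 5074 and 80321 at 7 d in DMSO and dTAG. Of the listed 2-cell genes, 22 of 23 were in the tables. Among them 16 of 19 over the minimum mean were at least 2-fold higher at 24 h, with a median log2 fold of 2.66, and 20 of 21 at 7 d, with a median of 3.75. The medians of the 5 Usp17l members were 4.06 and 4.86. Zscan4d, a gene of the 2-cell embryo that guards telomeres, had 33.9 and 464 at 24 h, a fold of 13.3. Feeder fibroblast markers had summed means of 1870 and 2351 at 24 h and of 1598 and 2389 at 7 d. The feeder fibroblast list had 0 of 8 and 1 of 7 genes over the minimum at least 2-fold higher, and its part in the values of the family was not tested. In bulk cultures more cells in this state and more Usp17l RNA per cell cannot be told apart.

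After washout of the degrader the family lay close to the untreated level. After 15 d in dTAG, Usp17lb stood at 2355 against 47.6 in DMSO, and after Recovery at 65.1. Usp17le had 1723 in dTAG, 62.7 in DMSO and 107 in Recovery. Usp17la had 1501, 32.8 and 49.9 in the same order. Means of Usp17lc were 907, 27.2 and 40.1, and those of Usp17ld 508, 13.5 and 24.2, so each member was highest in dTAG and lowest in DMSO. In dTAG against DMSO the folds ran from 27.1 (Usp17le) to 48.4 (Usp17lb), 5 of 5 members were past 2-fold beside 5.48% of 17869 genes, and the ranks were 6, 8, 28, 41 and 84. Recovery lay under dTAG by 16.03-fold (Usp17le) to 35.6-fold (Usp17lb), again 5 of 5, beside 6.99% of 17936 genes at least 2-fold lower. Recovery lay over DMSO by 1.36-fold (Usp17lb) to 1.74-fold (Usp17ld), with 0 of 5 past 2-fold beside 1.6% of 17365 genes at least 2-fold higher and 1.25% lower. These comparisons share their groups. The family sum was 184 in DMSO, 6994 in dTAG and 286 in Recovery, and MERVL-int was 5617, 147295 and 11016. Of the 2-cell genes over the minimum mean, 20 of 21 were at least 2-fold higher in dTAG, 20 of 21 at least 2-fold lower in Recovery than in dTAG, and 1 of 12, Pramef25, at least 2-fold higher in Recovery than in DMSO. The markers of the feeder fibroblast list also differed in Recovery, where 6 of 8 over the minimum were at least 2-fold lower than in DMSO, with summed means of 2859 in DMSO, 3820 in dTAG and 1151 in Recovery. Lum was at 0 in Recovery. Their part in the values of the family was not tested.

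Sorting separated the 2 states, and the family stood far higher in 2CLCs than in mESCs. In DMSO, Usp17lc had a mean of 41.1 in mESCs and 8424 in 2CLCs, a fold of 200.04, the largest among the members. Usp17lb had 53.3 and 8598, a fold of 158. Usp17ld had 25.8 and 3729, a fold of 139. Usp17la had 33.9 and 4500, a fold of 129. Usp17le, with 70.1 and 8512, had the smallest fold, 120. All 5 members were past 2-fold, beside 17% of 18303 genes. The sum of the family was 224 in mESCs and 33763 in 2CLCs. The gate was set on a MERVL reporter, and MERVL-int had means of 6891 and 1643470 in these groups. All 22 listed 2-cell genes were past 2-fold, with a median log2 fold of 7.40, beside 7.12 for the Usp17l members. The 10 pluripotency markers had a median log2 fold of -0.67 in 2CLCs against mESCs, from -1.64 to 0.49, beside a median of -0.02 for all genes.

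Without EHMT2 the members were higher in both sorted populations, by larger folds in mESCs. In GFP-negative mESCs Usp17lb went from 53.3 in DMSO to 2570 in dTAG, a fold of 47.4. Usp17la went from 33.9 to 1145, a fold of 32.8, and Usp17lc from 41.1 to 856, a fold of 20.3. Usp17le went from 70.1 to 1105, a fold of 15.5, and Usp17ld from 25.8 to 359, a fold of 13.4. The 5 members were past 2-fold beside 5.93% of 17142 genes and ranked 1, 3, 23, 49 and 91. In 2CLCs Usp17lb had 8598 in DMSO and 51418 in dTAG, a fold of 5.98. Usp17la had 4500 and 17955, a fold of 3.99, and Usp17lc had 8424 and 25997, a fold of 3.09. Usp17ld had 3729 and 8990, a fold of 2.41, and Usp17le had 8512 and 19435, a fold of 2.28. All 5 were again past 2-fold, beside 5.99% of 18281 genes. The listed 2-cell genes had a median log2 fold of 0.50 in this comparison, with 5 of 22 at least 2-fold higher (B020004J07Rik, Obox3, Zfp352, Tcstv1 and Tcstv3) and 1 lower (Usp26), beside a median of 1.63 for the Usp17l members. Among the markers of the 2-cell-like state 3 of 9 were at least 2-fold higher. Zscan4c had 44464 and 52636 there, a fold of 1.18, and Zscan4d had 29920 and 52348. The MERVL parts were higher with dTAG as well, MERVL-int with 1643470 and 3256080 and MT2_Mm with 182380 and 458867. Gm8300, a gene of similar pattern described further on, had 13058 and 34944. The log2 fold of dTAG over DMSO was smaller in 2CLCs than in mESCs, with differences of -2.48 (Usp17ld) to -3.04 (Usp17la), past 1 in 5 of 5 members, beside 8.15% of 19051 genes.

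**Figure D2:**
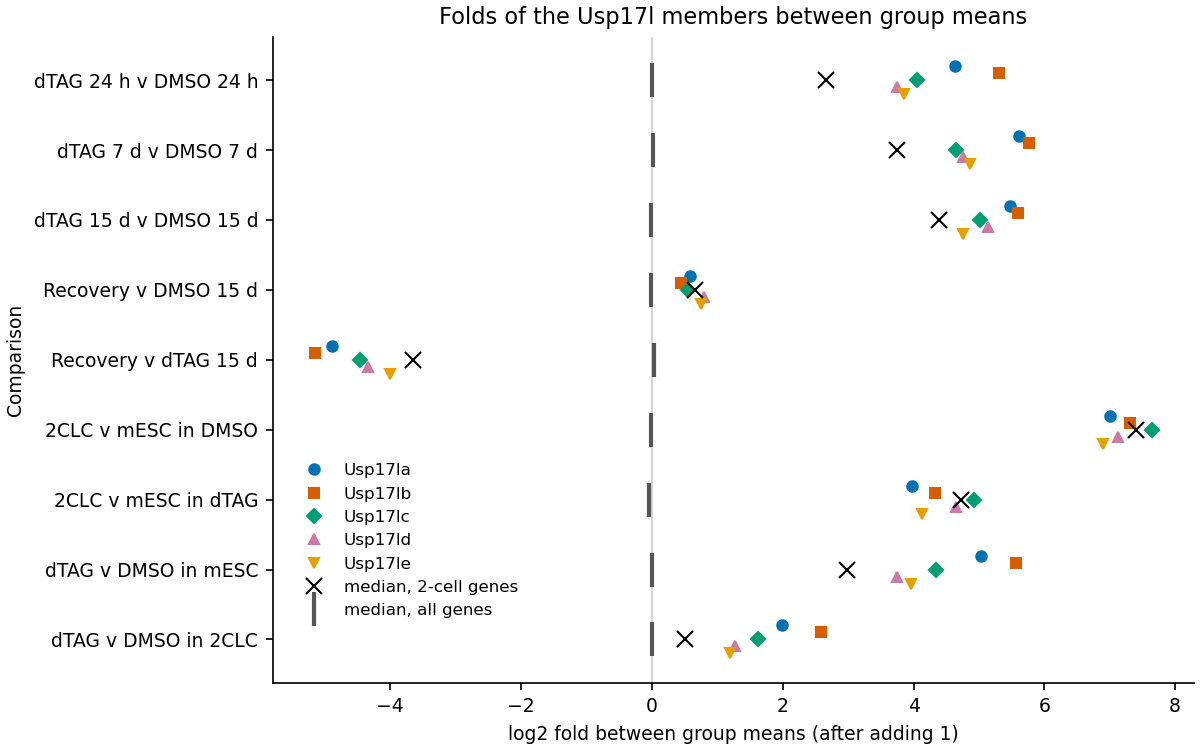
Log2 folds between the authors' group means, after adding 1, for the 5 Usp17l members (coloured symbols), with the median of the listed 2-cell genes (crosses) and of all genes over the minimum mean (grey bars), which lies near 0 in every comparison. In dTAG against DMSO the members lie above the median of the 2-cell genes, with medians of 1.63 and 0.50 in 2CLCs, while in 2CLC against mESC the members lie around it.

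The level in sorted mESCs was then set against that in 2CLCs of the same treatment. In DMSO the mESC mean was 0.488% (Usp17lc) to 0.824% (Usp17le) of the 2CLC mean. In dTAG it was 3.29% (Usp17lc) to 6.37% (Usp17la). For the family sum the shares were 0.664% and 4.87%, so the mean in mESCs without EHMT2 reached 6034 against 123795 in 2CLCs. In dTAG 2CLCs thus exceeded mESCs by 15.7-fold (Usp17la) to 30.3-fold (Usp17lc), with 5 of 5 members past 2-fold beside 16% of 18244 genes. The same shares were taken for the markers of the 2-cell-like state. MERVL-int gave 0.419% in DMSO and 2.42% in dTAG, and Zscan4d gave 0.519% and 4.09%. Duxf3, the gene of the activator Dux, gave 0.971% and 11.1%, and Zfp352, a zinc finger gene of the 2-cell embryo, gave 0.141% and 1.05%. What part 2-cell-like cells in the GFP-negative gate had in the mESC values was not tested. The markers of the feeder fibroblast list were higher in dTAG in both populations, 6 of 8 at least 2-fold in each, with summed means of 439 and 828 in mESCs and of 1066 and 1849 in 2CLCs. Lum was at 0 in 2CLCs with dTAG, and the part of these cells was not tested.

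**Figure D3:**
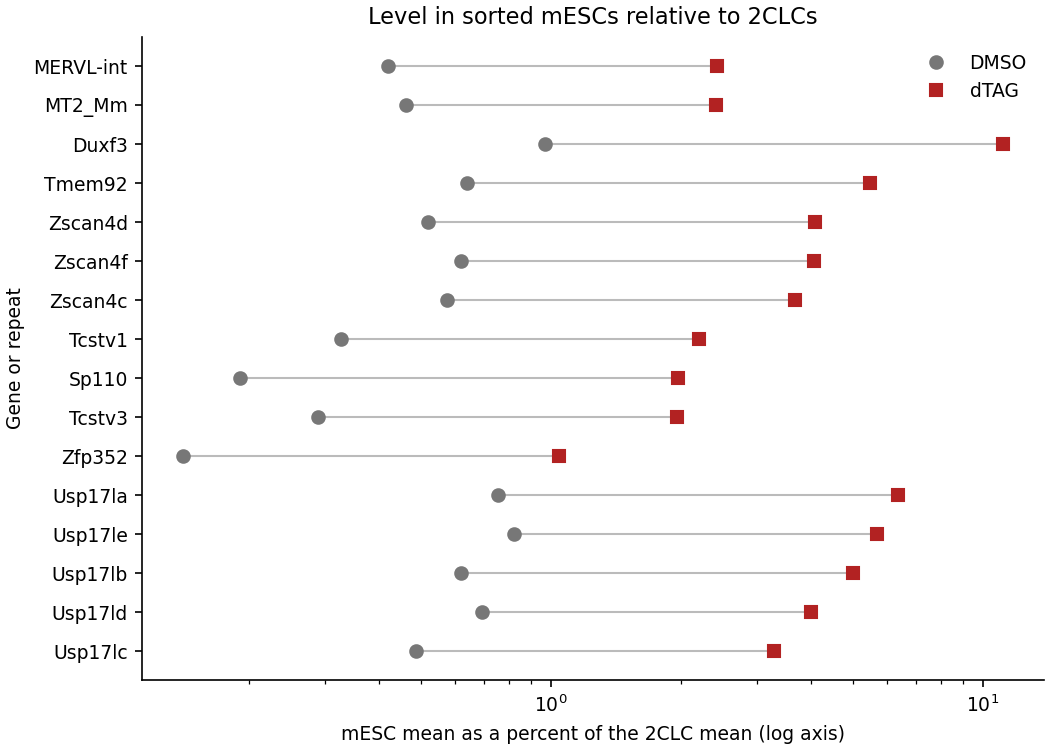
Mean in sorted GFP-negative mESCs as a percent of the mean in GFP-positive 2CLCs, on a log axis, in DMSO (grey) and dTAG (red), for the 5 Usp17l members, 9 marker genes of the 2-cell-like state and the MERVL parts MERVL-int and MT2_Mm. In DMSO all points lie under 1%, and in dTAG the members lie between 3.29% and 6.37%, within the range of the marker genes.

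The balance between the members differed with treatment and cell state. Per kilobase of exon, Usp17le was the highest member in DMSO at 24 h, with 12.0 normalized counts per kb, and Usp17lb (4.84), Usp17lc (4.82), Usp17la (3.52) and Usp17ld (3.25) followed. In dTAG at 7 d Usp17lb led with 582 per kb, before Usp17le (374), Usp17la (219), Usp17lc (213) and Usp17ld (114). In 2CLCs with dTAG the order per kb was Usp17lb (32939), Usp17lc (10598), Usp17le (9781), Usp17la (6760) and Usp17ld (4524). In 2CLCs with DMSO it was Usp17lb (5508), Usp17le (4284), Usp17lc (3434), Usp17ld (1877) and Usp17la (1694). Without a spread over libraries it cannot be said which neighbours in these orders differ. Usp17lb made up 12.8% of the family sum in DMSO and 26.8% in dTAG at 24 h. Its share was 20.0% and 30.5% at 7 d, 25.9% and 33.7% at 15 d, and 22.8% in Recovery. In sorted cells it held 23.8% in mESCs and 25.5% in 2CLCs with DMSO, and 42.6% and 41.5% with dTAG. The share of Usp17le ran the other way, from 40.5% to 28.3% at 24 h, from 31.3% to 18.3% in sorted mESCs and from 25.2% to 15.7% in sorted 2CLCs. In WT cells of the Dppa4 experiment, the share of Usp17lb was 70.3%, 37.1% and 38.3% in replicates 1, 2 and 3 with DMSO and 43.3%, 41.1% and 44.6% with UNC0638. It was thus lower with UNC0638 in replicate 1, where the DMSO library held 26 reads of Usp17lb, and higher in the other replicates. The share of Usp17le was 21.6%, 17.1% and 18.0% with DMSO and 20.3%, 19.8% and 18.2% with UNC0638, so that the lower share seen with dTAG appeared in replicate 1 alone.

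**Figure D4:**
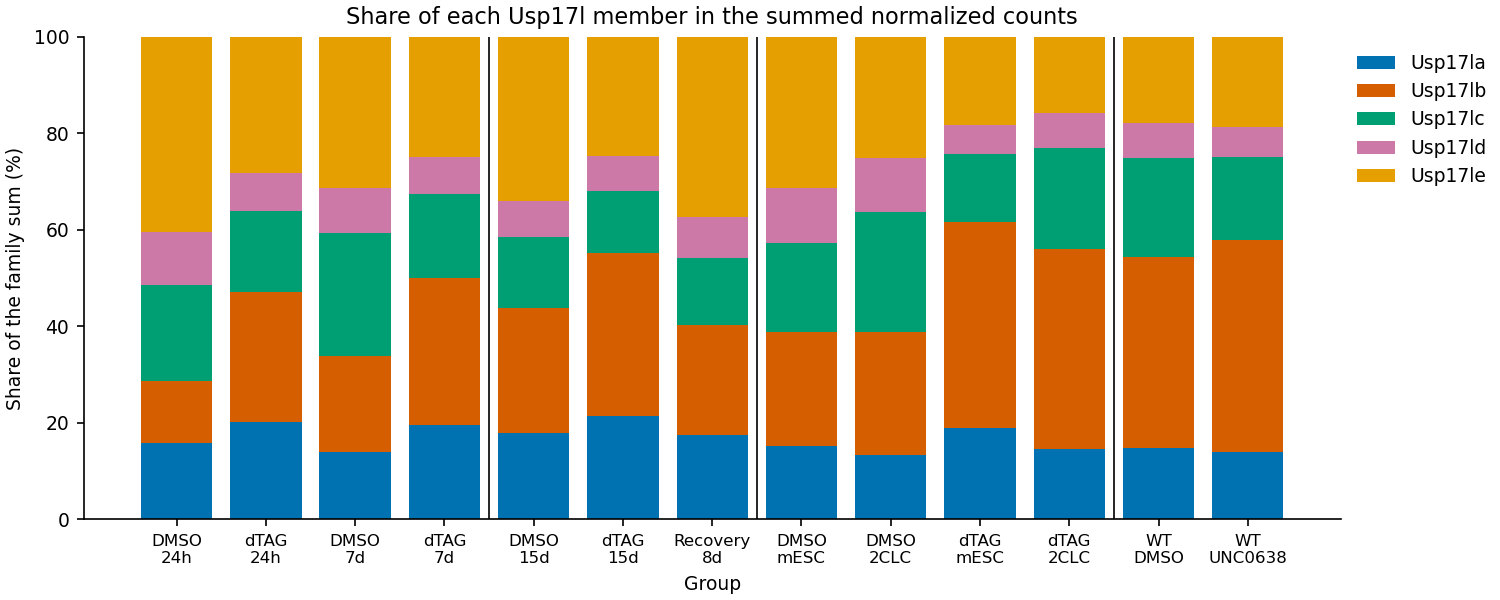
Share of each Usp17l member in the summed normalized counts of the 5 members, in percent, for 11 groups from the authors' means and for the WT groups of the Dppa4 experiment, with vertical lines between experiments. Usp17lb holds more of the sum in each dTAG group than in its DMSO group, for example 23.8% and 42.6% in sorted mESCs.

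In the Dppa4 experiment the members could be read in every library. In WT cells with DMSO, Usp17lb had 30.3, 77.5 and 216 normalized counts in replicates 1, 2 and 3, and with UNC0638 it had 227, 340 and 1421. All UNC0638 libraries lay above all DMSO libraries. Usp17le had 9.31, 35.7 and 101 with DMSO and 107, 164 and 580 with UNC0638, again without overlap. Usp17lc had 3.49, 48.0 and 116 with DMSO and 95.1, 149 and 543 with UNC0638. Its groups overlapped, as did those of the next members. Usp17la was at 0, 35.7 and 84.8 with DMSO and at 64.3, 115 and 457 with UNC0638. Usp17ld was at 0, 12.3 and 45.5 with DMSO and at 31.7, 60.7 and 185 with UNC0638. Replicate 3 was the highest and replicate 1 the lowest under both treatments for every member. Without overlap were 2 of 5 members, beside 9.86% of the genes tested. The family sum was 272 ± 266 (SD, n = 3) with DMSO and 1513 ± 1457 (SD, n = 3) with UNC0638. Without replicate 3 these means were 126 and 676. Zscan4d had 18.6, 62.7 and 210 with DMSO and 122, 170 and 1172 with UNC0638, in the same order of libraries, and limma called 0 of 13 tested genes of the 2-cell genes list, with a median log2 fold of 1.72. The part of 2-cell-like cells in the difference was not tested.

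**Figure D5:**
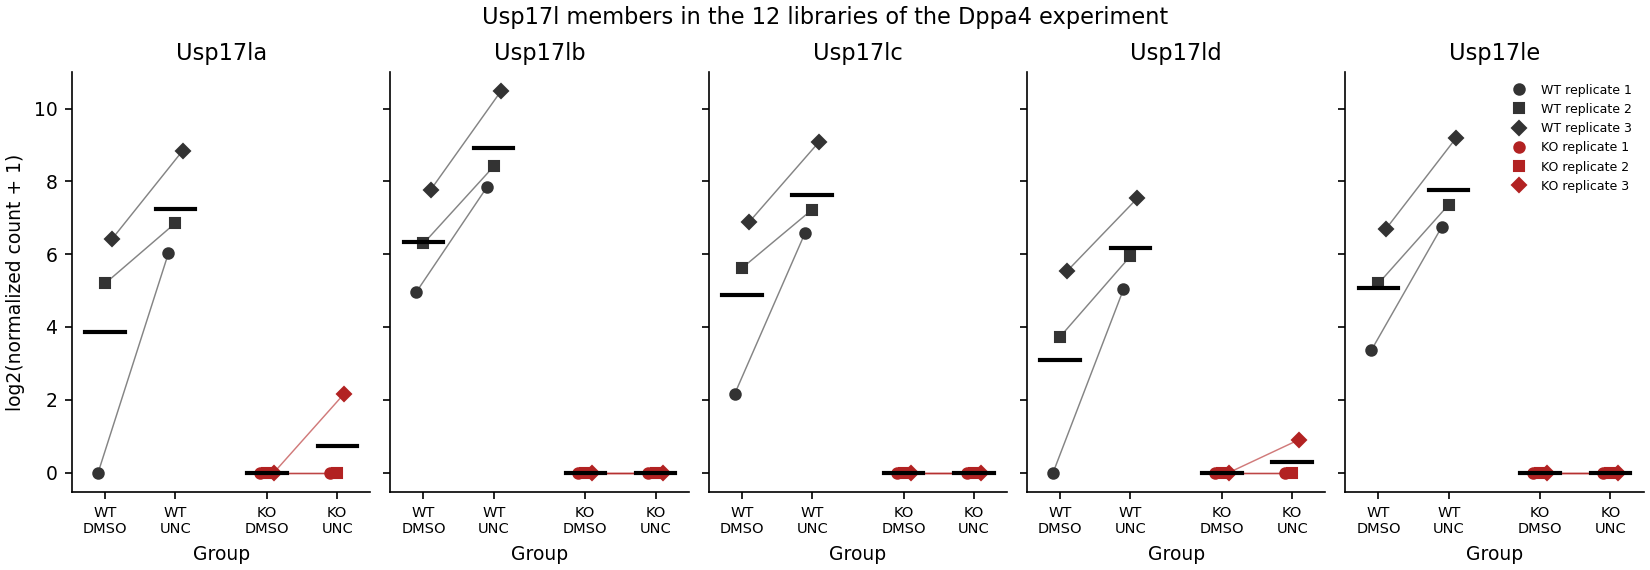
Level of each Usp17l member in the 12 libraries of the Dppa4 experiment as log2 of the normalized count plus 1, with lines between libraries of the same replicate number and black bars at the mean of 3 libraries. Every WT pair is higher with UNC0638, and the KO libraries are at 0 except replicate 3 with UNC0638, which has 3.49 normalized counts of Usp17la and 0.873 of Usp17ld.

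The call for UNC0638 in WT depended on whether the replicate numbers were used as pairs. In the limma fit of the 4 groups without pairs, the log2 folds were 3.37 (SE 1.27) for Usp17la, 2.57 (SE 0.73) for Usp17lb, 2.75 (SE 0.97) for Usp17lc, 3.08 (SE 1.14) for Usp17ld and 2.68 (SE 0.82) for Usp17le. None of the 5 passed, each with an adjusted p of 0.563 in limma, in a fit that called 0 of 17258 genes in either direction (0%). At an unadjusted p under 0.05 that fit had 1504 genes, among them the 5 members, while edgeR called 0 genes and DESeq2 called 13. The WT libraries deviated together by replicate number, and with the pair as a term in the 6 WT libraries, a fit added after the data were seen, limma called 5 of 5 members, beside 1.06% of 16396 genes called higher. In this paired limma fit the adjusted p was 0.014 for Usp17la, 0.00037 for Usp17lb, 0.0072 for Usp17lc, 0.013 for Usp17ld and 0.0018 for Usp17le. Each member was higher in 3 of 3 pairs. The folds of Usp17lb in pairs 1, 2 and 3 were 7.30, 4.35 and 6.56, and those of Usp17le were 10.4, 4.49 and 5.67. Over the alternatives the adjusted p of Usp17lb ran from 0.00037 to 0.96.

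In KO cells the family was at or near 0. With DMSO, Usp17la, Usp17lb, Usp17lc, Usp17ld and Usp17le had 0 reads in 3 of 3 KO libraries, which allows a mean of up to 1.05 normalized counts for each member (3 reads over the group). Against that limit the WT mean was at least 103-fold higher for Usp17lb, 53.4-fold for Usp17lc, 46.6-fold for Usp17le, 38.3-fold for Usp17la and 18.4-fold for Usp17ld. WT replicate 3 carried much of these means, and without it the limits were 51.4-fold, 24.6-fold, 21.5-fold, 17.03-fold and 5.87-fold in the same order. The WT library with the lowest level lay 28.9-fold, 3.33-fold and 8.89-fold over the limit for Usp17lb, Usp17lc and Usp17le, and at 0 for the others. With UNC0638, Usp17lb, Usp17lc and Usp17le had 0 reads in all 3 KO libraries as well, and their WT means were at least 699-fold, 276-fold and 299-fold higher. Without WT replicate 3 these limits were 299-fold, 128-fold and 142-fold. Usp17la had 4 reads and Usp17ld 1 read, all in replicate 3 of KO with UNC0638. From these the WT mean was 168-fold (95% counting interval 65.5 to 615) and 293-fold (52.5 to 11562) over KO, and the intervals cover counting error only. Without WT replicate 3 these folds were 70.8 and 146. The members passed the filter on low counts through their WT libraries alone. The counts of calls, the adjusted p and the overlaps between KO and WT given next therefore only describe them.

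With DMSO limma called 3 of 5 members lower in KO, beside 3.1% of 17258 genes called lower. Usp17lb was lower by a log2 fold of -6.34 (SE 0.73, limma adjusted p = 0.00025), Usp17le by -5.08 (SE 0.82, limma adjusted p = 0.0024) and Usp17lc by -4.88 (SE 0.97, limma adjusted p = 0.0082). These 3 members had no overlap between KO and WT libraries, beside 16.1% of genes with every KO library lower. Usp17la (log2 fold -3.87, limma adjusted p = 0.076) and Usp17ld (-3.09, limma adjusted p = 0.11) were not called, and both were at 0 in WT replicate 1 too. Leaving out that library gave 5 of 5, edgeR and DESeq2 each gave 5 of 5, and leaving out WT replicate 2 gave 2 of 5, with Usp17lc at a limma adjusted p of 0.053. With UNC0638 limma called 5 of 5 members lower in KO, beside 2.31% of genes, from -5.87 (SE 1.14, limma adjusted p = 0.0093) for Usp17ld to -8.91 (SE 0.73, limma adjusted p = 5.3e-06) for Usp17lb. All 5 had no overlap there, beside 12.6% of genes. Without WT replicate 3 with UNC0638, 3 of 5 were called, with a limma adjusted p of 0.060 for Usp17la and 0.062 for Usp17ld. Of the 22 listed 2-cell genes 13 were tested, and 6 of 13 were called lower in KO with DMSO and 9 of 13 with UNC0638. Zscan4c, Zscan4d, Zscan4f and Duxf3 were at 0 in all 6 KO libraries, and the Zscan4 genes among these passed the filter through WT alone. The calls of 2-cell genes therefore only describe them too. The feeder fibroblast list had summed means of 2589 and 2281 in WT and of 1488 and 1555 in KO with DMSO and UNC0638, and its part was not tested.

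The response to UNC0638 in KO cells was small in reads. Limma called 0 of 5 members there, beside 0.411% of genes called higher and 0.0521% lower, with log2 folds of 0.72 for Usp17la, 0.30 for Usp17ld and 0 for the other members. The limma fit had 2664 genes at an unadjusted p under 0.05 in KO, with 0 of the members among them, and edgeR and DESeq2 called 37 and 246 genes. The difference between the UNC0638 effects in KO and WT was -2.57 (95% interval -4.76 to -0.38) on the log2 scale for Usp17lb and -2.68 (-5.13 to -0.24) for Usp17le. Usp17lb, Usp17lc and Usp17le had 0 reads in every KO library, so their difference is the WT effect with its sign turned. Such KO libraries also add no spread to a limma fit of the 4 groups. The SEs and intervals of these fits, here and above, can therefore be too narrow for the spread between WT libraries. Over the members the difference ran from -2.57 to -2.78, with limma adjusted p from 0.775 to 0.786, and 0 of 5 members were called in a fit that called 0 of 17258 genes (0%). At an unadjusted p under 0.05 this limma fit had 1076 genes, among them Usp17lb and Usp17le, and edgeR and DESeq2 called 0.

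Few genes around the members were detected in bulk cells. Within 250 kb of a member lie 96 other genes, of which 73 are olfactory receptor genes and 13 reached a mean of 10 in any group. At 24 h and at 7 d 3 of them were over the minimum mean in either group, and 0 were past 2-fold. At 15 d 1 of 3 was at least 2-fold higher with dTAG, beside 5.48% of all genes. In sorted mESCs 1 of 3 was, beside 5.93%, and in sorted 2CLCs 7 of 12, beside 5.99%, with a median log2 fold of 1.36. Most of the 12 reached the minimum mean only through 2CLCs with dTAG, so the filter favours a higher level in that group. Gm4887, 18.0 kb from Usp17lb, had 569 and 501 at 24 h and 463 and 560 at 7 d in DMSO and dTAG. Gm5900, 87.2 kb from Usp17la, had 325 and 392, then 385 and 422. Gm6593, 74.6 kb from Usp17le, had 126 and 134, then 139 and 115. The pseudogene Usp17le-ps between the groups reached 7.34 at most, in 2CLCs with dTAG. In sorted cells more neighbours were detected, and 10 of 12 over the minimum were at least 2-fold higher in 2CLCs than in mESCs with dTAG, beside 16% of all genes. Among these, Gm25774, annotated as a microRNA gene inside Usp17lc, was at 0, 96.5, 13.0 and 292 in mESCs and 2CLCs with DMSO and then with dTAG, and reads of Usp17lc can be counted for it. Gm25171 and Gm23550, annotated likewise 8.38 kb and 14.6 kb from Usp17ld, reached 34.3 and 10.1 in 2CLCs with dTAG.

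The genes most like the family in pattern were found by Pearson's r of log2 levels with the family sum, averaged over the 4 experiments, among 15172 genes. They were Gm8300 (mean r 0.994), Zscan4d (0.992), Gm21293 (0.991), Gm4340 (0.991) and Gm20765 (0.990). The members themselves had 0.983 to 0.995, but each is part of the sum, so these values cannot be set beside those of other genes. Of the other genes, 109 reached 0.95. The correlations rest on 4, 3 and 4 group means and 12 libraries that all genes share. Gm8300 had means of 21.9 and 265 at 24 h in DMSO and dTAG, and of 79.4 and 13058 in mESCs and 2CLCs with DMSO. In KO cells with either treatment it was at 0.

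The other ubiquitin-specific proteases, a list of 51 genes, mostly stayed within 2-fold in the comparisons in which the Usp17l genes were past it. At 24 h 0 of 49 over the minimum mean were past 2-fold in either direction, with a median log2 fold of 0.05. At 7 d Usp26 was higher and Usp11 lower, and at 15 d Usp26, a gene of the germ line, was higher, with 16.2 in DMSO and 86.5 in dTAG. In sorted cells with DMSO 2 of 50 were higher in 2CLCs, Usp26 with 12.1 and 608 and Usp9y, listed at 0 in mESCs, with 47.4, while Usp46, Usp49 and Usp51 were at least 2-fold lower. In 2CLCs Usp26 had 608 with DMSO and 287 with dTAG, while the 5 Usp17l members were higher with dTAG. UNC0638 in WT gave no call among 49 tested, and 1 of 49 was lower in KO with UNC0638, Usp31, with a log2 fold of -1.61 (limma adjusted p = 0.015). These genes were named for passing 2-fold or the test, after their values were seen.

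The genes of proteins reported as USP17 substrates, Cdc25a, Rce1, Suds3, Elk1, Mcl1 and Snai1, had 0 of 6 past 2-fold at 24 h, at 7 d and at 15 d. Cdc25a, the cell cycle phosphatase, had 1414 and 778 in sorted mESCs and 2CLCs with DMSO. Snai1, the gene of Snail, a repressor active in epithelial-mesenchymal transition, had 10.4 and 393 in these groups, a fold of 34.6, and went from 10.4 to 37.7 with dTAG in sorted mESCs, a fold of 3.39. In the Dppa4 experiment 0 of 6 were called by limma in any comparison. Transcript levels say nothing of the proteins on which the enzymes act.

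Markers of other cell types were read because the family is known from blood cells. The summed means of 6 blood cell markers stayed between 101 and 178 in the time course and the washout and between 50.5 and 118 in sorted cells. Of the 4 blood cell markers over the minimum, 1, Cd3e, was at least 2-fold higher with dTAG at 24 h, 7 d and 15 d, with 15.0 and 59.0 at 24 h. At 7 d 1 of 4 was at least 2-fold lower. The median log2 folds of this list were -0.31 at 24 h, -0.28 at 7 d and -0.29 at 15 d, and Cd79a had 73.2 and 37.1 at 24 h. The 6 primitive endoderm markers had summed means of 269.9 and 472 at 24 h, 369.5 and 376 at 7 d, and 375, 645 and 339 in DMSO, dTAG and Recovery of the washout. In sorted cells the primitive endoderm sum was 172 and 386 in mESCs and 2CLCs with DMSO and 198 and 522 with dTAG. Of these markers 4 of 6 with DMSO and 5 of 6 with dTAG were at least 2-fold higher in 2CLCs, beside 17% and 16% of all genes. In Recovery 4 of 6 were at least 2-fold lower than in dTAG, beside 6.99% of all genes. With dTAG against DMSO, 1 of 6 was at least 2-fold higher at 24 h, 0 of 6 at 7 d and 1 of 6 at 15 d. In sorted cells 1 of 6 was higher with dTAG in mESCs and 0 of 6 in 2CLCs. The 6 trophoblast markers went both ways, with summed means of 1397 and 745 at 24 h, 940 and 1431 at 7 d, and 1154, 1030 and 1264 in the washout. The trophoblast markers over the minimum, 3 at 24 h, 4 at 7 d and 3 in sorted mESCs, had median log2 folds with dTAG of -0.62, 0.88 and -1.24. The medians of all genes were 0.00, 0.01 and 0.01 in the same comparisons. In sorted mESCs the trophoblast sums were 1123 and 731. In 2CLCs the trophoblast sums were 463 and 431. The 10 pluripotency markers had 0 of 10 past 2-fold with dTAG in the time course, the washout and both sorted populations. In the Dppa4 experiment limma called Klf4 (log2 fold 1.01, adjusted p = 0.0025) and Tbx3 (1.43, adjusted p = 0.024) of this list higher in KO with DMSO. The feeder gene Twist2 was called lower there (log2 fold -1.80, limma adjusted p = 0.023), and the trophoblast gene Cdx2 was called lower in KO with UNC0638 (-3.41, limma adjusted p = 0.028). The part of these cell types in the values of the family was not tested.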

How the data were processed

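The RNA-seq values of these mouse cells were taken from the tables the authors deposited, and no reads were aligned here. Per the methods of the study, paired-end reads (2 × 100 bases in the time course and washout, 150 bases elsewhere) were trimmed with Trim Galore 0.6.7 and aligned to mm10 (GRCm38) with STAR 2.7.10, end to end, with up to 3 mismatches, without introns, and with each read written to 1 place, the best or, among equally good ones, a random one. TEcounts counted genes of GENCODE vM25 and repeats, and DESeq2 1.34.0 divided the counts by size factors over both. The deposited signal values are these normalized counts, as group means for the time course, washout and sorted experiment and per library for the Dppa4 experiment. The authors also deposited their own fold changes and p-values, from DESeq2, which were not used.

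Group means were compared as log2 folds after adding 1, for genes with a mean of at least 10 in either group. Without values for single libraries no test could be computed here from these means, so the limma tests, leave-one-out fits and blocks planned for these 3 experiments were replaced by a description of size. For the Dppa4 experiment whole reads were recovered from 100% of values (tolerance 0.01 reads). At least 1 read was found for 30115 of 55401 genes, and filterByExpr of edgeR kept 17258. limma 3.58.1 with a trend was fitted to log2(normalized count + 1) in 4 groups, in R 4.3.3, and genes were called at a Benjamini-Hochberg adjusted p under 0.05 and 2-fold. edgeR 4.0.16 and DESeq2 1.42.0 on the recovered reads, other pseudocounts (0.5 and 5), scalings, no filter, a stricter threshold (0.01), single groups, blocking on the replicate number and leaving out libraries one by one were alternatives. The limma script was tested on simulated data. Same-numbered WT libraries deviated together (correlation of deviations from the group means 0.246, 0.103 and 0.431 for replicates 1, 2 and 3), so they were taken as pairs. In KO libraries these correlations were 0.154, -0.092 and 0.013, with replicate 1 above WT replicate 2. Deviations from the mean of 3 libraries depend on each other, so the case for pairs is weak. Replicates of this experiment are independent clones. Those of the sorted experiment are numbers alone.

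A group at 0 was bounded by 3 reads over the group. Intervals of folds on reads are exact at 95% and cover counting error. Promoters came from RefSeq (GRCm38.p6), which held 4 of 5 members, and coding sequences from GENCODE transcripts of GRCm38. Members, the lists (2-cell genes, other ubiquitin-specific proteases, USP17 substrates, cell type markers) and the tests were chosen with earlier results of these data known. All members are named in every comparison, with the 5 genes of most similar pattern, up to 6 near neighbours with a value, and up to 4 of a list.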

Additional observations from a re-analysis of the deposited data

How the results depend on the processing

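The numbers of Usp17l members past the thresholds, the family sums and the values of each member were recomputed under each alternative, which gave 944 values in all. The sign was compared for folds past the threshold, and 0 turned. Of the member counts and family sums, 173 were kept and 10 were not. Kept meant within 1.5 times the reported value or, for sums of the Dppa4 experiment, within 1 SD, which is wide in WT. Of the single values 741 were kept, 17 passed the threshold and 3 fell short. Kept meant the same call in the Dppa4 experiment. For folds between group means it meant a change of at most 1.5 times, which can cross the threshold. The causes were not tested. In the comparison of the DMSO groups at 7 d and 24 h, a pseudocount of 0.5 gave 1 member past 2-fold in place of 0. For the dTAG effect at 7 d against 24 h, the means scaled by TMM or to the same sum gave 0 in place of 2. For UNC0638 in WT the replicate block within the 6 WT libraries, added after the data were seen, gave 5 members by limma (174 genes called higher) and 5 by edgeR in place of 0. The replicate block over all 4 groups called 0 of 5 there, and for KO against WT in DMSO it called 4, with Usp17la added. KO libraries share only a number, and the block changed no other member count. For KO against WT in DMSO, edgeR and DESeq2 gave 5 and a fit of the 2 groups alone gave 1, in place of 3, and without 1 library the count ran from 2 to 5. For KO against WT in UNC0638 it ran from 3 to 5. Without 1 library the family sum ran from 126 to 386 in WT with DMSO and from 676 to 2007 with UNC0638. Counts over all genes moved more. For UNC0638 v DMSO in KO limma called 80 genes, edgeR 37 and DESeq2 246, and the limma count was 12 without the filter, 172 with the replicate block, 3 with the KO groups alone and 2 to 365 without 1 library. For KO v WT in DMSO it was 765, and 286, 431 and 369 without WT replicate 2, WT replicate 3 and KO replicate 1. For KO v WT in UNC0638 it was 567, and 190 and 194 without WT replicates 2 and 3, while DESeq2 called 856.

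In the time course, washout and sorted experiment, edgeR, DESeq2, the filter, the stricter threshold, the block, the fit of single groups and the omission of libraries were not run, because the tables used here hold group means. No paired analysis was possible because of this for these 3 experiments, although clones recur in 2 of them. Random placing of reads that match equally well limits values of single members, and depth limits Usp17la and Usp17ld in WT replicate 1 and all members in KO.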
